A study of Homo sapiens with 9 samples.

Results

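The genes described here encode the receptors for glutamate and GABA, the main excitatory and inhibitory transmitters of the brain. They are all protein-coding RefSeq genes whose symbols begin with GRIA, GRIK, GRIN, GRID or GRM followed by a number, or with GABRA, GABRB, GABRG, GABRD, GABRE, GABRR or GABBR. The rule returned 45 of 19974 protein-coding genes on chromosomes 1 to 22 and X, and it used no measured value. DNA:RNA hybrids had been mapped by DRIP-seq in SH-SY5Y, an established human neuroblastoma line, with the hybrid antibody S9.6. The shTDP43 cells carried a lentiviral short hairpin against TDP-43, the product of TARDBP, which binds RNA and DNA, and the shNC cells carried a negative-control hairpin in the same vector. Puromycin selection lasted 2 weeks at 2 µg/mL in both, and 1 µg/mL was kept on afterwards. Each genotype had 1 library treated for 6 h with RNase H, which removes the RNA strand of hybrids, and 3 untreated libraries. For every library 6 µg of nucleic acid had been cut with 5 restriction enzymes before immunoprecipitation, and 1 input library was not analysed here. Whether replicates were separate transductions is not stated in the labels, and p-values measure only the spread between these libraries.

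AMPA, kainate and NMDA receptors are glutamate-gated cation channels built as tetramers, and metabotropic glutamate receptors signal through G proteins. GABA-A receptors are chloride channels built as pentamers, and GABA-B receptors pair a GABA-binding subunit with one that couples to G proteins. A DNA:RNA hybrid forms where an RNA pairs with its template strand and leaves the other DNA strand single, often near the start of transcribed genes with a G-rich non-template strand. TDP-43 binds UG-rich RNA and has long neuronal introns among its known targets, and several receptor genes are very long.

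The files list peaks without read counts, so the value of a gene is its covered length, the bases under called peaks within the gene and 1 kb beyond either end. Covered length is not a measure of expression, and it cannot check the knockdown: TARDBP (chromosome 1, 11012654 to 11030528) had 6.82, 9.87 and 10.2 kb in shTDP43 libraries and 14.2, 10.3 and 12.7 kb in shNC libraries. The shTDP43 lists covered 91.6, 128 and 131 Mb of the genome, and the shNC lists 142, 130 and 125 Mb. Library 1 of shTDP43 thus had the shortest total, and it also had the lowest background pileup, 1.05 against 1.62 to 2.01 in the other 5. After RNase H the totals were 5.66 Mb in shTDP43 and 10.5 Mb in shNC. The background pileups of these treated libraries, 0.991 and 0.936, were lower than in any untreated library. Of 10 adrenergic neuroblastoma markers, 9 carried peaks in all 6 untreated libraries and TH was at 0. Of 8 markers of mature glutamatergic or GABAergic neurons, 1 did, and SLC17A6, NEUROD6, TBR1, GAD1 and GAD2 were at 0. Peaks in all 6 were also found in 4 of 8 mesenchymal neuroblastoma markers and 2 of 4 astrocyte markers, beside 59.9% of all coding genes.

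The annotated start lay under a peak in all 6 untreated libraries in 5 of the 32 receptor genes that matched the RefSeq promoter table, 15.6% against 34.3% of 15812 coding genes. It was covered in some of the 6 libraries in 6 receptor genes, 18.8% against 20.3%, and in none in 21 receptor genes, 65.6% against 45.4%. The windows of those 5 starts are printed because these are the receptor promoters with the most regular hybrids. GABBR2, the partner of GABBR1, is printed as a GC-rich contrast with no untreated peak, and was chosen after its values were seen. Each window runs 5′ to 3′ on the gene's own strand from 250 bases before to 50 after the start (RefSeq, GRCh38.p14), and capitals mark every run of at least 3 G. They are GRM8 at chr7:127252892-127253191 (minus strand), GRIK5 at chr19:42070157-42070456 (minus), GABBR1 at chr6:29627964-29628263 (minus), GRIN2D at chr19:48393418-48393717 (plus), GRIN3B at chr19:1000169-1000468 (plus) and GABBR2 at chr9:98708886-98709185 (minus).
GRM8: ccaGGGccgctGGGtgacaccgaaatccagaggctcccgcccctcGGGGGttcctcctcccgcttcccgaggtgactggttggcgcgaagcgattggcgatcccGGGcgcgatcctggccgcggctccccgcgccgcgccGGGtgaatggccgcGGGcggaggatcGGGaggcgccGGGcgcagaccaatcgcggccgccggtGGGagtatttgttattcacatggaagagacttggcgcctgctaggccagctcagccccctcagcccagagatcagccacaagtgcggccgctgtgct
GRIK5: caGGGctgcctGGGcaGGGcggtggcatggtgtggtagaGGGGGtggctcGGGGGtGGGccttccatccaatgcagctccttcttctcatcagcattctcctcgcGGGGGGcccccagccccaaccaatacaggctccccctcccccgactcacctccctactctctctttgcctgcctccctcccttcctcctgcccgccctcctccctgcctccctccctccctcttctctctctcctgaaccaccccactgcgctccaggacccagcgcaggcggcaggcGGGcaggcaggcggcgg
GABBR1: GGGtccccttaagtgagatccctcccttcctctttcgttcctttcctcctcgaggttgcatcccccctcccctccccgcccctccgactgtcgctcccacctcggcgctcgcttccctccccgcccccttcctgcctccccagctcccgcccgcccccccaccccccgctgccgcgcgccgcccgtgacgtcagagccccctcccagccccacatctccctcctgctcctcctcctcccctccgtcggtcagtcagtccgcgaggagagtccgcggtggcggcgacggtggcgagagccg
GRIN2D: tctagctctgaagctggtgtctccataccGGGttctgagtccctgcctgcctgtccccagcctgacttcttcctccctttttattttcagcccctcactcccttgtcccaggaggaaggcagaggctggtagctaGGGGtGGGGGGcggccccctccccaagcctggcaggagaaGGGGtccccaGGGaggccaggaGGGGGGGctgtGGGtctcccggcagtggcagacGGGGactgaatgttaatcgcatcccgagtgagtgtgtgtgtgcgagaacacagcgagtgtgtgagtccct
GRIN3B: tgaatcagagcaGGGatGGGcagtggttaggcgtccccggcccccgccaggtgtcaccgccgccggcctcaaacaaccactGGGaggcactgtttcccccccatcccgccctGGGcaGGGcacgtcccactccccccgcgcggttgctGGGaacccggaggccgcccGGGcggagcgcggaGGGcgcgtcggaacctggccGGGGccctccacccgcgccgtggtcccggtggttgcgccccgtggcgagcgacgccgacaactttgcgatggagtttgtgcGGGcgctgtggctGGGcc
GABBR2: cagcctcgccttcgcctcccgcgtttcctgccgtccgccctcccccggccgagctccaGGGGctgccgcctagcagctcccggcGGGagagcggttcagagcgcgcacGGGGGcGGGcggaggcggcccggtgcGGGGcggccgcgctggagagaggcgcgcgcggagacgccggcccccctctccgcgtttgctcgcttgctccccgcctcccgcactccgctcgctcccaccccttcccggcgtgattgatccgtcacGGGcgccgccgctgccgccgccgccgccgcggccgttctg

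The 5 covered windows were 62.3% to 73.7% G and C, with a median of 70%, and the 21 uncovered receptor windows 33.3% to 79.0%, with a median of 58.0%. The GABBR2 window, at 79.0%, was the highest of the uncovered ones, so a GC-rich receptor start was not always under a peak. The printed strand of GRIN3B held 11 G runs, that of GRM8 9, those of GRIK5 and GRIN2D 8 each and that of GABBR2 6, beside a median of 7 over 15813 coding-gene windows. GABBR1 had the fewest, with 1 G run on its own strand and 22 on the opposite strand. The opposite strand also held more runs in GRIK5 (15), GRIN3B (13), GRIN2D (12) and GABBR2 (11), and in GRM8 it held 8. The RefSeq start of GABBR1 lies 5.17 kb inside the gene span. The repeat TGTGTG, the DNA form of the UG repeat that TDP-43 binds, was searched on both strands and occurred in 8 of 32 receptor windows, 25.0% against 14.5% of all coding-gene windows. Among the printed windows GRIN2D holds it, near its 3′ end. None of the 6 printed windows holds a site of the enzymes used (BsrGI TGTACA, EcoRI GAATTC, HindIII AAGCTT, SspI AATATT, XbaI TCTAGA, each the same on both strands), and 7 of 32 receptor windows did, 21.9% against 17.6%.

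Peaks were found in a smaller share of receptor genes than of coding genes in general, and coverage was concentrated in a few short genes. Peaks were present in all 6 untreated libraries in 14 of 45 receptor genes, 31.1% against 59.9% of all coding genes. A further 10 genes had a peak in some of the 6, 22.2% against 10.7%, and 21 had none, 46.7% against 29.4%. Together 24 genes had a peak in any untreated library, 53.3% against 70.6%. The shTDP43 libraries had peaks in 16, 20 and 23 receptor genes, beside 61.7%, 66.1% and 66.0% of coding genes, and the shNC libraries in 22, 22 and 20, beside 67.4%, 67.5% and 65.6%. The receptor genes are long, with a median span of 169 kb against 24.1 kb in other coding genes. Within genes of 100 kb or more, 6 of 26 receptor genes had peaks in all 6 libraries, 23.1% against 62.9% of coding genes of that length. Within shorter genes, 8 of 19 did, 42.1% against 59.3%. Over 25% of the window was covered, on the mean of the 6 libraries, in 7 genes: GRIN3B (100%), GRIN1 (86.6%), GABBR1 (68.3%), GRIK5 (54.2%), GRIN2C (48.0%), GRM6 (30.8%) and GRM2 (27.8%). These are 15.6% of receptor genes, against 30.4% of other coding genes. All 7 are shorter than 100 kb, and among genes of that length the shares were close, 36.8% against 35.7%. Among genes of 100 kb or more they were 0% and 4.30%.

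**Figure D1:**
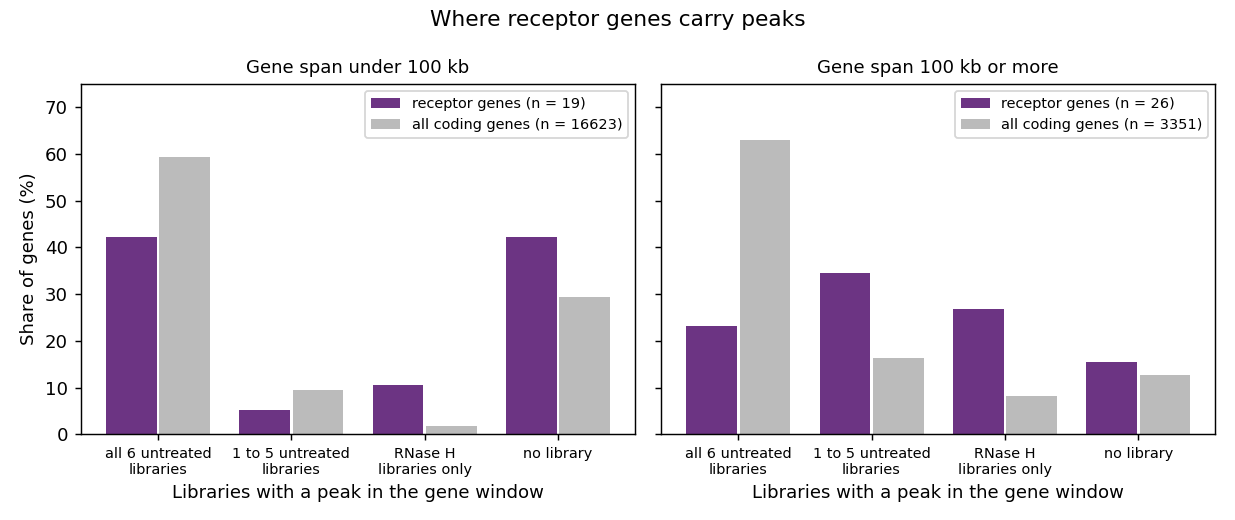
Share of receptor genes (purple) and of all coding genes (grey) by the libraries with a peak in the gene window, for spans under 100 kb and of 100 kb or more. Among the longer genes, 23.1% of receptor genes against 62.9% of coding genes had peaks in all 6 untreated libraries.

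The AMPA receptor subunits, which carry fast excitatory transmission, had little coverage. GRIA4 had 0.396, 1.89 and 1.40 kb in shTDP43 libraries, against 1.05, 1.505 and 0 kb in shNC libraries, all of it within a region that spans the gene start, and the groups overlapped. GRIA2, which encodes the subunit that limits calcium entry, had 0, 1.81 and 0.830 kb in shTDP43 libraries, against 0, 0 and 0.309 kb in shNC libraries, again with overlap. GRIA1 had a peak in 1 library of each genotype, and GRIA3 had none before RNase H.

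The kainate receptor genes included the single receptor gene with the longest coverage and one whose values did not overlap between genotypes before or after scaling. GRIK5 (chromosome 19, 41998324 to 42070206), an auxiliary high-affinity subunit that needs a partner to form a channel, had 33.9, 44.2 and 41.6 kb in shTDP43 libraries, against 43.7, 40.0 and 36.9 kb in shNC libraries. These overlapped, and part of the coverage, 6.46%, lay in the overlapping gene ZNF574. GRIK4 (chromosome 11, 120511748 to 120988906), the other auxiliary subunit, had 0.593, 1.41 and 2.38 kb in shTDP43 libraries, against 5.13, 3.51 and 4.54 kb in shNC libraries. All 3 shTDP43 values were below all 3 shNC values. GRIK2 (chromosome 6, 101393708 to 102070083), a principal channel-forming subunit, had 4.63, 5.96 and 4.92 kb in shTDP43 libraries, against 7.34, 6.27 and 6.38 kb in shNC libraries, lower throughout before scaling but overlapping after it. GRIK3, another principal subunit, had 0, 4.16 and 2.93 kb in shTDP43 libraries, against 4.22, 3.46 and 2.47 kb in shNC libraries, with overlap. The value at 0 was that of the shallowest untreated library. GRIK1 had no peak in any library.

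NMDA receptor genes had the most regular coverage of the families, with peaks in all 6 untreated libraries in 5 of 7 genes. GRIN1 (chromosome 9, 137139154 to 137168756), the subunit that every NMDA receptor needs, had 24.9, 28.0 and 27.9 kb in shTDP43 libraries, against 28.6, 28.5 and 26.5 kb in shNC libraries. GRIN2C (chromosome 17, 74842023 to 74861532), a glutamate-binding subunit known from cerebellum, had 8.88, 12.2 and 11.8 kb in shTDP43 libraries, against 10.6, 10.1 and 8.46 kb in shNC libraries. GRIN2D (chromosome 19, 48393668 to 48444931), a glutamate-binding subunit of early development, had 10.8, 11.1 and 12.6 kb in shTDP43 libraries, against 12.7, 12.9 and 12.03 kb in shNC libraries. All 3 genes overlapped between genotypes, and 39.4% of the GRIN2D coverage lay in its neighbour KDELR1. GRIN3B (chromosome 19, 1000419 to 1009732), a glycine-binding subunit, lay whole under one wide region and had 11.3 kb, its full window, in each of the 6 libraries. GRIN3A, the related glycine-binding subunit, had 0.346 to 1.31 kb. The long genes GRIN2A and GRIN2B, whose glutamate-binding subunits prevail in adult forebrain, had no untreated peak.

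Of the delta receptor genes, whose products bind cerebellins at synapses, GRID1 (chromosome 10, 85599552 to 86366795) had 2.37, 4.46 and 3.88 kb in shTDP43 libraries, against 2.62, 2.62 and 2.99 kb in shNC libraries. The shallow shTDP43 library 1 was lowest and the other 2 shTDP43 libraries were highest. All of it lay in one region at the end of the gene with the higher coordinates.

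The metabotropic genes GRM7, GRM3 and GRM8 separated the genotypes, in different directions. GRM7 (chromosome 3, 6861115 to 7741533), a presynaptic inhibitory receptor, had 0, 0.489 and 1.41 kb in shTDP43 libraries, against 3.25, 2.47 and 2.47 kb in shNC libraries. GRM3 (chromosome 7, 86643909 to 86864879), an inhibitory receptor of neurons and astrocytes, had 0.479, 0 and 1.17 kb in shTDP43 libraries, against 2.17, 1.81 and 1.97 kb in shNC libraries. Every shTDP43 value of both genes was below every shNC value. GRM8 (chromosome 7, 126438598 to 127252941), a presynaptic relative of GRM7, went the other way, with 3.66, 4.50 and 4.78 kb in shTDP43 libraries, against 3.32, 3.32 and 2.77 kb in shNC libraries. All 3 shTDP43 values were above all 3 shNC values. In shTDP43 library 1, 687 bp of this length came from a peak 354257 to 354943 bp after the start, found in no other untreated library. The region over the GRM8 start overlapped between genotypes, with 3122, 3535 and 3467 bp in shTDP43 and 3467, 3467 and 2919 bp in shNC. GRM6 (chromosome 5, 178978327 to 178995320), the receptor of retinal ON bipolar cells, had 5.71, 6.62 and 7.58 kb in shTDP43 libraries, against 6.34, 5.51 and 3.38 kb in shNC libraries, and 63.5% of its coverage lay in the neighbour ZNF454. GRM2 (chromosome 3, 51707068 to 51718613), the partner of GRM3 in its subgroup, had 3.04, 3.99 and 4.69 kb in shTDP43 libraries, against 4.51, 2.98 and 3.40 kb in shNC libraries. The values of GRM6 and GRM2 overlapped between genotypes. GRM5, which couples to phospholipase C, had no peak in any library, and GRM4 had none before RNase H.

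GABA-A receptor genes were mostly without peaks: 13 of 17 had none in the untreated libraries, and 9 of these had none in any library. Those without an untreated peak included GABRA6 and GABRB2 on chromosome 5 and GABRA2, GABRA4 and GABRG1 on chromosome 4. GABRD, the delta subunit of extrasynaptic receptors, had a peak in 1 shNC library. Of the GABA-B genes, GABBR1 (chromosome 6, 29602238 to 29633183), the GABA-binding subunit, had 20.0, 22.1 and 23.4 kb in shTDP43 libraries, against 23.7, 23.4 and 22.5 kb in shNC libraries, with overlap. GABBR2, the G-protein-coupling subunit, had no untreated peak, although both proteins are needed for a working receptor.

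**Figure D2:**
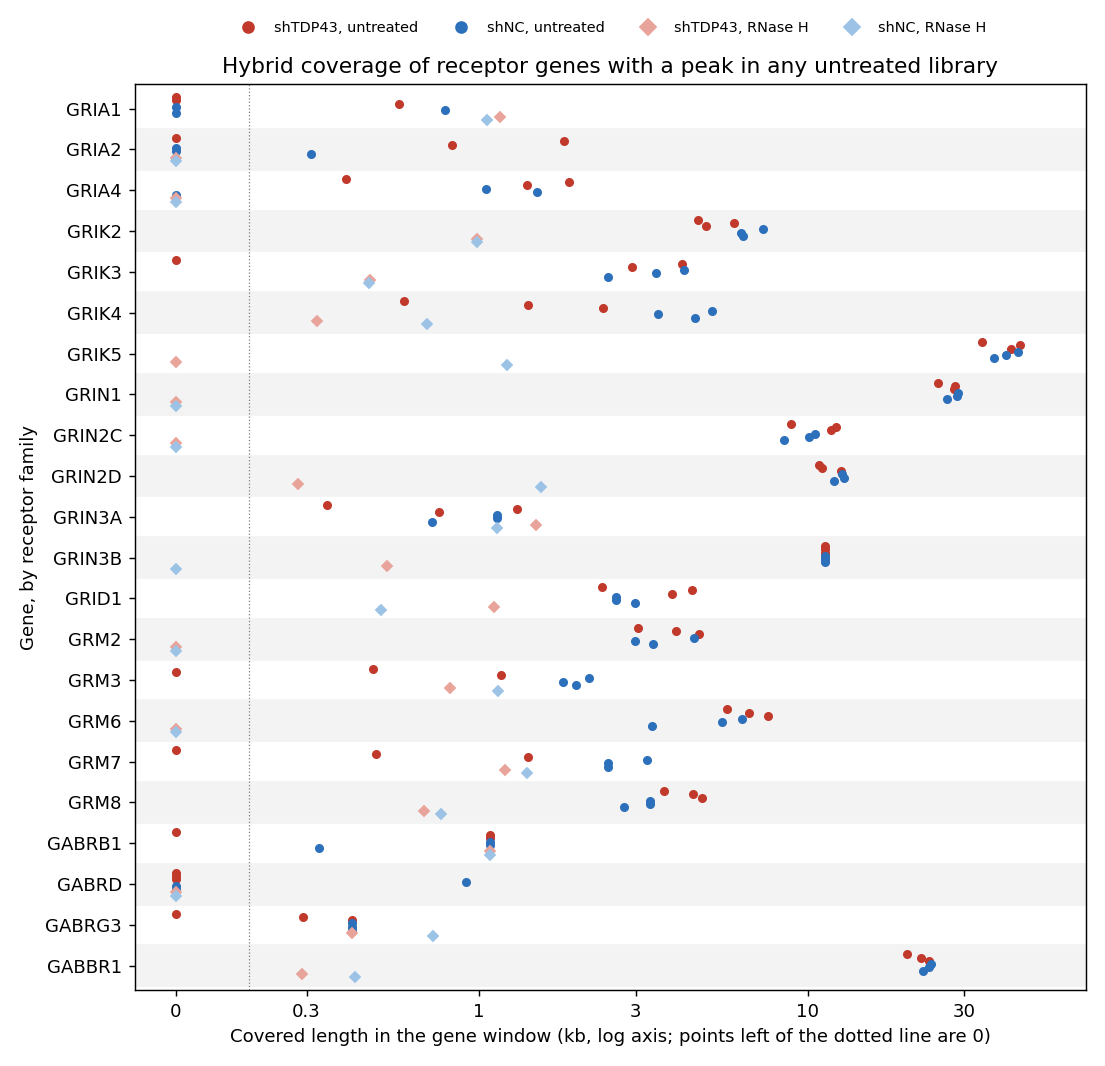
Covered length per library (kb, log axis) of 22 receptor genes with a peak in any untreated library, in family order, with shTDP43 in red, shNC in blue and RNase H-treated libraries as pale diamonds. In these unscaled values GRIK2, GRIK4, GRM3 and GRM7 have all red circles left of all blue circles, and GRM8 has them right. GRIK2 overlapped after scaling.

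No receptor gene passed the test of shTDP43 against shNC over all genes (limma on log2 of the scaled covered length plus 100 bp, Benjamini-Hochberg adjusted p under 0.05). Covered length averaged 500 bp or more in 19 receptor genes, which entered the test. Of these 0 were called higher and 0 lower, against 0.172% and 0.749% of the 12810 genes tested, or 0.921% in either direction. At an unadjusted p under 0.05 there were 8 of 19 receptor genes, beside 11.5% of all genes tested. That count depended on the processing: it was 3 of 19 without scaling and stayed at 8 with a pseudocount of 500 or 1000 bp. Among peaks whose −log10 q reached 5 it was 3 of 17, and where it reached 10 it was 1 of 14. With 1 library left out it ranged from 4 to 7. Without the scaling, 1 gene of 12810 was called higher and 19 lower, in place of 22 and 96. The remaining 26 receptor genes fell below the filter.

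GRIK4 averaged 1.46 ± 0.90 kb in shTDP43 and 4.40 ± 0.82 kb in shNC (SD, n = 3 libraries each), a log2 change of -1.52 ± 0.35 (SE) with a limma adjusted p of 0.115. Of 18 alternative settings, 2 brought the limma adjusted p of GRIK4 under 0.05. Without shTDP43 library 3 its log2 change was -1.86 with an adjusted p of 0.0441. Without peaks also called after RNase H it was -1.67 with an adjusted p of 0.0301, although GRIK4 had 0 kb under both a treated and an untreated peak. That setting called 1070 genes higher and 669 lower of 12162 tested. Without shTDP43 library 1 the log2 change of GRIK4 was -1.17 with an adjusted p of 0.0881. Without shNC library 1, 2 or 3 the adjusted p was 0.44, 0.30 or 0.41 (limma). GRM7 averaged 0.633 ± 0.72 kb in shTDP43 and 2.73 ± 0.45 kb in shNC, a log2 change of -2.62 ± 0.89 with a limma adjusted p of 0.291. GRM3 had a log2 change of -2.14 ± 0.89 and a limma adjusted p of 0.407. Both genes had 1 shTDP43 library at 0, and neither passed the threshold. At GRM7 this was the shallow library 1, and without it the log2 change was -1.55 (limma adjusted p 0.141). At GRM3 it was library 2, and without it the log2 change was -1.05 (limma adjusted p 0.350). GRM8 averaged 4.31 ± 0.58 kb in shTDP43 and 3.14 ± 0.32 kb in shNC, a log2 change of 0.63 ± 0.16 with a limma adjusted p of 0.132.

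After scaling, covered lengths did not overlap between genotypes in 5 receptor genes that were higher in shTDP43, beside 8.14% of the genes tested, and in 3 that were lower, beside 10.2%. The 3 lower ones were GRIK4, GRM7 and GRM3, and the higher ones were GRM8, GRM6, GRID1, GRIN2C and GRIK5. The log2 change was 0.61 ± 0.21 for GRM6 (limma adjusted p 0.289), 0.51 ± 0.20 for GRID1 (0.357), 0.36 ± 0.10 for GRIN2C (0.201) and 0.18 ± 0.08 for GRIK5 (0.411). Of the higher ones only GRM8 kept its groups apart before scaling, a separation seen in 0.796% of the genes tested. The GRM8 value of shTDP43 library 1 included the 687 bp peak far from the start that no other untreated library had. Before scaling GRIK4, GRM7, GRM3 and GRIK2 were lower without overlap, beside 14.0% of the genes tested. GRIN3B, at the same 11.3 kb in every library, had a log2 change of 0.19 through the library scaling only, close in size to that of GRIK5. The median log2 change was 0.14 over the 19 receptor genes and 0.05 over all genes tested, and 12 of 19 (63.2%) against 56.5% were above 0. Without scaling these medians were -0.05 and -0.15.

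**Figure D3:**
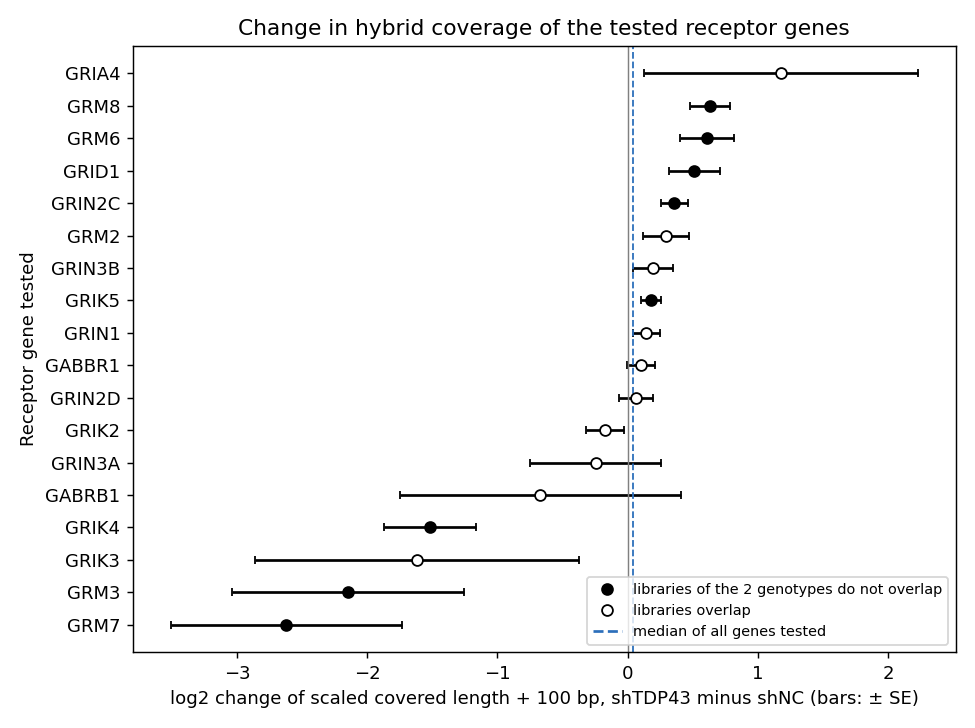
Log2 change of scaled covered length plus 100 bp, shTDP43 minus shNC, for 18 tested receptor genes, with bars of 1 SE and filled points where the scaled values of the 3 libraries of each genotype do not overlap. Of the filled points GRM7, GRM3 and GRIK4 lie lowest, between -2.62 and -1.52, and no gene passed the adjusted threshold.

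The differences in GRIK4 and GRM7 lay at and after the gene start, at GRIK4 mostly from 2 to 10 kb after it. In the 2 kb after the GRM7 start the shTDP43 libraries had 0, 0.489 and 0.357 kb, against 2.00, 1.47 and 1.47 kb in shNC libraries. In the same stretch GRIK4 had 0.532, 0.336 and 0.770 kb in shTDP43 libraries, against 1.69, 1.46 and 1.33 kb in shNC libraries. From 2 to 10 kb after its start GRIK4 had 0.062, 0.483 and 0.389 kb in shTDP43 libraries, against 2.45, 1.36 and 2.69 kb in shNC libraries. In each of these stretches the shTDP43 libraries were the lower ones without overlap. In the 1 kb before the start GRIK4 overlapped, with 0, 0.051 and 0.564 kb in shTDP43 libraries, against 1.00, 0.272 and 0.524 kb in shNC libraries. The 3 shNC libraries each had one unbroken peak over the GRM7 start, whereas the shTDP43 peaks were short pieces within that block. GRM8 had a block over its start in both genotypes, broken in shTDP43 library 1 and shNC library 3, and a second region 10044 to 10945 bp after the start was called in 2 shTDP43 libraries and no shNC library. The 2 kb after the GRM8 start held 2.00 kb in all 3 shTDP43 libraries and 2.00, 2.00 and 1.45 kb in shNC libraries. GRM3 had no peak near its start. Its main region lay 218078 to 220373 bp downstream, close to the other end of the gene.

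**Figure D4:**
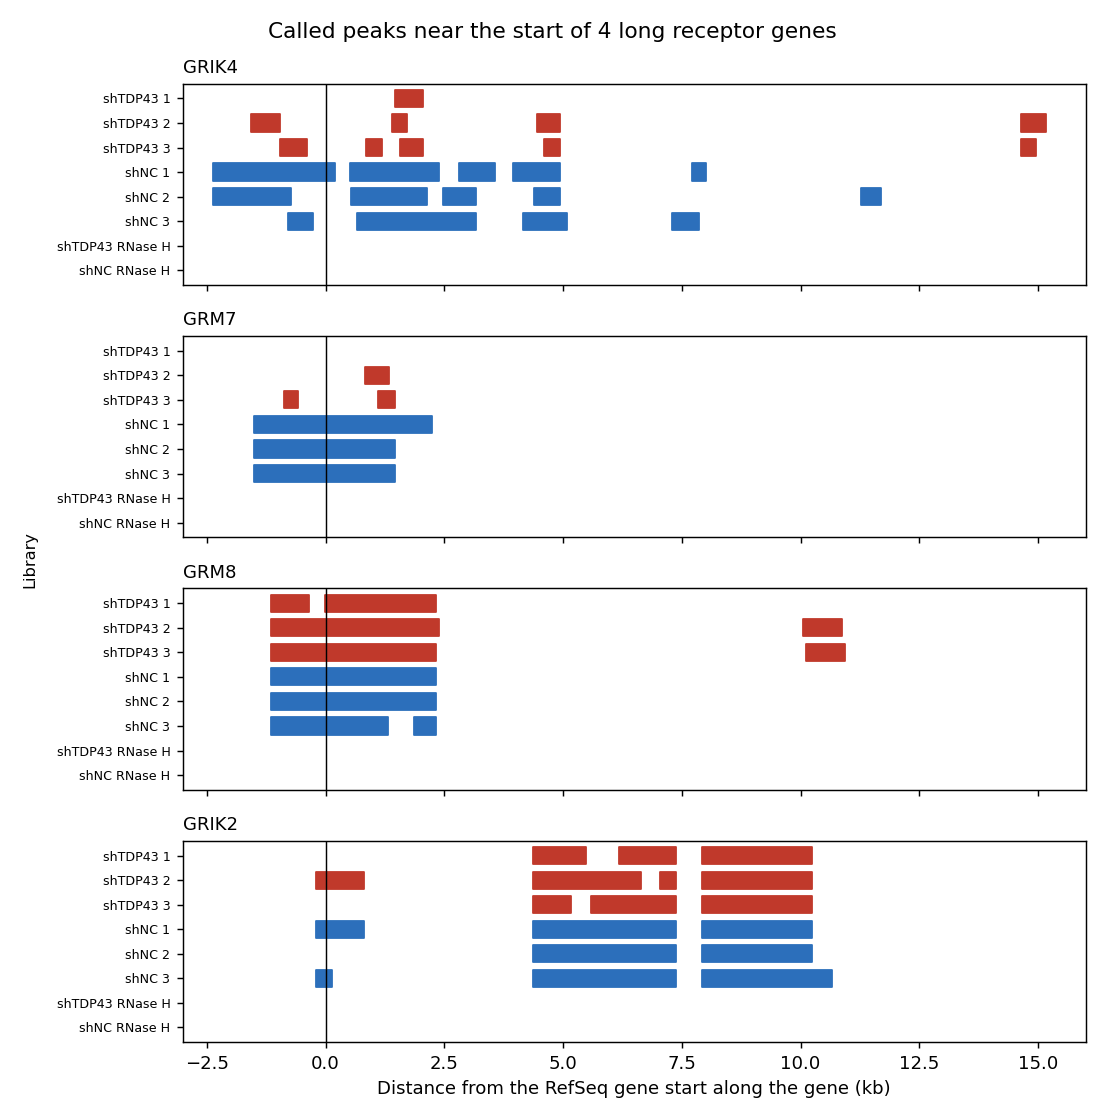
Called peaks (boxes) by distance from the RefSeq gene start along the gene (kb), one row per library, for GRIK4, GRM7, GRM8 and GRIK2, with shTDP43 rows above shNC rows. At GRM7 the shNC libraries have one unbroken block over the start and the shTDP43 libraries have short pieces or no peak, and no RNase H library has a peak in these stretches.

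Single regions rarely belonged to one genotype. Merging the peaks of the 6 untreated libraries gave 117 regions in receptor genes. Of these, 27 were found in all 6, 23.1% against 24.2% of all regions, and 0 in all shTDP43 and no shNC libraries, against 0.258%. The reverse, all shNC and no shTDP43 libraries, held for 2 regions, 1.71% against 1.27%. One of them lay in GRIN2D (chromosome 19, 48412531 to 48412936), 18863 bp after the start, and covered 406, 300 and 308 bp in shNC libraries. It was a short piece of a gene whose whole covered length overlapped between genotypes.

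Most of the covered length was absent after RNase H, and the treated libraries also had peaks in receptor genes where the untreated ones had none. Summed over the 45 genes, covered length was 16.1 kb in the treated shTDP43 library, against 136, 173 and 175 kb in untreated shTDP43 libraries. It was 25.1 kb in the treated shNC library, against 180, 169 and 156 kb in untreated shNC libraries. Of these treated lengths, 4.73 kb in shTDP43 and 7.12 kb in shNC lay under an untreated peak of the same genotype. Peaks in all 6 untreated libraries and none in either treated one were found in 11.1% of receptor genes, among them GRIN1, GRIN2C, GRM2 and GRM6, against 35.8% of coding genes. GABBR1 had 0.290 kb in the treated shTDP43 library and 0.422 kb in the treated shNC library. With 1 treated library per genotype these are values without a test. The treated libraries also had the lowest background pileups, and the share of the loss that goes with depth was not tested.

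The treated libraries had peaks in 20 receptor genes in shTDP43, beside 17.5% of coding genes, and in 23 in shNC, beside 27.2%. A peak after RNase H but in no untreated library was found in 9 receptor genes, 20.0% against 2.85% of coding genes: GABBR2, GABRA2, GABRB2, GABRG1, GABRR1, GRIA3, GRIN2A, GRIN2B and GRM4. In genes of 100 kb or more the shares were 26.9% and 8.24%. Both treated libraries agreed on the gene in 4 of the 9, 8.89% against 1.13% of coding genes, and in genes of 100 kb or more 11.5% against 4.18%. At GABBR2 they agreed on the gene alone, as their peaks there did not overlap. Of the treated peaks in receptor genes, 22 of 31 in shTDP43 (71.0%) and 31 of 45 in shNC (68.9%) met no untreated peak, against 44.6% and 44.5% of all treated peaks. The median width of the treated peaks in receptor genes was 445 bp in shTDP43 and 442 bp in shNC, beside 437 and 458 bp over all treated peaks.

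Some treated peaks had the same first and last base in both genotypes, which occurred at 11 sites in receptor genes, 35.5% of the treated shTDP43 peaks there and 24.4% of the shNC ones, against 18.6% and 10.6% over all treated peaks. The highest deposited fold enrichment among them, the authors' own value for a peak, was that of a site in GABRB1 (chromosome 4, 47285275 to 47286354), 23.4 in the treated shTDP43 library and 26.9 in the treated shNC library. It had the same edges in 4 untreated libraries, so its 1080 bp made up all the coverage that GABRB1, a beta subunit gene, had in them. A second such site lay in GRIN3A (chromosome 9, 101701300 to 101702434), at 21.1 in the treated shTDP43 library and 24.5 in the treated shNC library. Other sites with shared edges included those in GABRB2, GABRG1, GABRG3, GRIA1, GRID1, GRM3 and GRM7.

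Coverage of a receptor gene went with that of its surroundings, except at GABBR1 and a few others. In the 500 kb on each side of the 7 receptor genes with over 25% coverage, a median of 29 coding genes lay and a median of 23.04% was covered. Around the 21 receptor genes without an untreated peak the medians were 4 coding genes and 0.318%, and around all coding genes 13 and 6.19%. For coding genes chosen in the same way they were 23 and 19.2% with over 25% coverage, and 12 and 2.24% without an untreated peak. Over the 45 genes Spearman's rho between own and surrounding coverage was 0.538 (n = 45 genes), beside 0.534 over all coding genes, as a description across genes that share the same libraries and, in part, the same neighbourhoods. Wide regions ran past the gene at GRIN3B (46897 bp), GRIN1 (48871 bp) and GRIK5 (63599 bp), so their values are in part those of a gene-dense block. GABBR1 had 68.3% of its window covered in a neighbourhood at 2.25%, and GRM6 30.8% in one at 3.07%. GABRD had 1 peak in 1 library in a neighbourhood at 42.0%, and GRM4 had none in one at 13.8%.

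**Figure D5:**
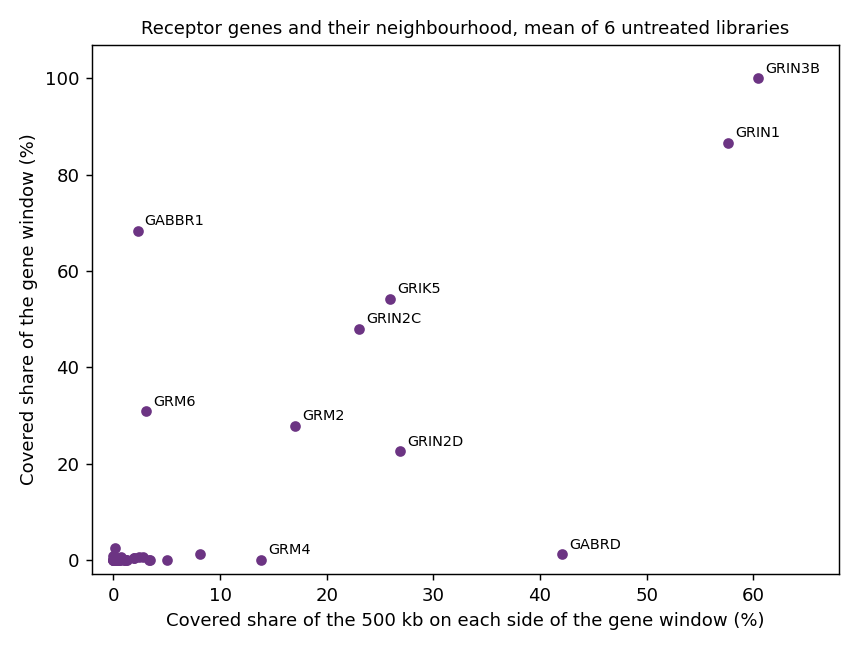
Covered share of each of the 45 receptor gene windows (%) against the covered share of the 500 kb on each side (%), each the mean of the 6 untreated libraries. GRIN3B and GRIN1 are high on both axes, GABBR1 is high at 2.25% surrounding coverage, and GABRD is near 0 at 42.0%.

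No gene was called in the lists of genes that work with the receptors. Of 20 auxiliary subunit genes 15 were tested, of 28 scaffold and anchor genes 19, and of 21 genes of transmitter synthesis and transport 11, with 0 called in either direction in each list, beside 0.921% of all genes tested, a share that gives few or no calls in lists of this size. Their median log2 changes were 0.12, 0.03 and 0.04, beside 0.05 over all genes tested. Unadjusted p was under 0.05 in 2, 2 and 1 of them, beside 11.5% of all genes tested. The smallest p in each list belonged to CACNG7, an AMPA receptor auxiliary subunit, at a log2 change of 0.28 ± 0.10 (SE, limma adjusted p 0.324), to SHANK2, a postsynaptic scaffold, at -0.53 ± 0.13 (0.128), and to SLC17A7, the vesicular glutamate transporter VGLUT1, at -3.81 ± 0.86 (0.107). SLC17A7 had 0, 0.433 and 0 kb in shTDP43 libraries, against 3.56, 2.71 and 1.43 kb in shNC libraries. The next smallest were CACNG5 at -2.92 (0.366), HOMER3 at 0.43 (0.290) and SLC38A2, an amino acid transporter, at 0.29 (0.634).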

How the data were processed

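Hybrids were measured by DRIP-seq in 6 untreated and 2 RNase H-treated libraries. Per the submitters' processing notes, reads were processed with MACS2 2.2.6, Bowtie2 2.4.4 and SAMtools on hg38. The peak-calling control was not given in the sources used here. The authors deposited one peak list per library, not pooled. A peak has a fold enrichment (ratio) deposited by the authors, deposited −log10 p and −log10 q values, and a deposited score that is 10 times the −log10 q, cut to a whole number, for nearly all peaks. These were used only within a list. The lists hold no counts, and depth was read as the background pileup solved from fold and p at peak summits.

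Members and comparison lists were chosen with earlier results of these data known. Gene positions and promoter sequences came from RefSeq GRCh38.p14, which shares coordinates with hg38. No genome was used, so peaks were not placed in exons, introns or repeats. Covered length per gene span plus 1 kb each side was computed in Python 3.11.15 with pandas 2.3.3 and numpy 2.4.6, scaled to the median library total and tested as log2(length + 100 bp) with limma 3.58.1 in R 4.3.3 (trend). Genes needed a mean of 500 bp covered, and the threshold was an adjusted p of 0.05. Lengths in kb are unscaled. Merged regions counted as present from 1 bp of overlap.

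Change statistics are printed for tested members called, without overlap between genotypes after scaling, or among the 6 smallest p, and library values also for the 10 longest mean coverages. Some members counted in the totals are not reported here. Of comparison lists, called genes or the 2 with the smallest p are named. On values simulated for the 12810 genes, with 200 changed, the test recovered 56% of log2 changes of 1 and 79% of those of 2, with 10 false among 145 calls. Alternatives covered scaling, pseudocount, filters, peak threshold, RNase H peaks, gene window, variance trend, replicate block and each library left out.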

Additional observations from a re-analysis of the deposited data

How the results depend on the processing

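No receptor gene was called higher under any alternative run. Receptor genes called lower, 0 as reported, became 2 of 16 tested without peaks also called after RNase H (GRIK4, adjusted p 0.0301, and GRM7, 0.0456). They ranged over 0 to 1 with 1 library left out. Of 12162 genes tested in the RNase H setting, 1070 were called higher and 669 lower, so calls were not particular to receptor genes. At GRM7 a region of 755 bp in shTDP43 library 3 was also called after RNase H, and no untreated shNC library had a peak there. That RNase H setting removed 13.7% to 14.7% of the covered length of shTDP43 libraries and 23.2% to 23.6% of that of shNC libraries. Of the 8 genes whose groups did not overlap, 3 turned direction: GRIK5 to -0.0161 without scaling, GRIN2C to -0.39 without peaks also called after RNase H, and GRM6 to -0.00306 among peaks whose −log10 q reached 5, and the cause was not tested. A region at GRIN2C (chromosome 17, 74833724 to 74844758) met 271 bp of treated shTDP43 peaks and 0 bp of treated shNC peaks. GRIK4 ranged between log2 changes of -3.66 and -1.09, GRM7 between -4.77 and -1.25, GRM3 between -3.21 and -0.94, GRM8 between 0.28 and 0.85 and GRID1 between 0.32 and 2.05.

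Over all genes, 22 higher and 96 lower became 1 and 19 without scaling, 36 and 160 with a pseudocount of 500 bp, 40 and 191 with 1000 bp, 3 and 30 among peaks whose −log10 q reached 5, 2 and 30 where it reached 10, 1070 and 669 without peaks also called after RNase H, and 14 and 61 without the variance trend. Equal peak numbers gave 40 higher. With 1 library left out, the range was 6 to 57 higher and 12 to 166 lower. Regions in all shNC and no shTDP43 libraries numbered 5 when 50% of the region had to be covered, 4.27% against 1.5% of all regions, in place of 2. Treated coverage of 16.1 and 25.1 kb became 4.73 and 7.12 kb under both a treated and an untreated peak. The replicate numbers did not pair the libraries: same-number deviations correlated at -0.17, 0.06 and -0.17, and the replicate block gave 9 higher and 65 lower, with 0 receptor genes in either direction. Peak lists show no difference below the caller's threshold, shTDP43 library 1 was shallow, and a fully covered gene cannot show an increase.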

Other observations

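Among 26 genes of other ligand-gated channel receptors, a comparison list, 13 were tested and 1 was called lower in shTDP43 by limma, beside 0.749% of all genes tested, with 0 called higher. This was CHRNA7, the alpha 7 nicotinic acetylcholine receptor, with 4.62, 5.56 and 7.18 kb in shTDP43 libraries, against 19.8, 14.9 and 15.2 kb in shNC libraries. Every shTDP43 value was below every shNC value, the log2 change was -1.32 ± 0.13 (SE) and the adjusted p 0.00555. CHRNA7 shares a near-identical stretch with the fusion gene CHRFAM7A on the same chromosome, and its value is uncertain for reads that match both. The nicotinic genes CHRNA3, CHRNA5 and CHRNB4, which neighbour each other, carried peaks in all 6 untreated libraries, with 19.6, 22.1 and 23.96 kb at CHRNA3 in shTDP43 libraries, against 25.2, 24.4 and 25.1 kb in shNC libraries. The list's median log2 change was -0.02. No peak occurred in the untreated libraries in GLRA1, CHRNA1, CHRNA4, CHRNB3, GABRP, HTR3A or HTR3B. P2RX2, an ATP-gated channel gene, had the same 5.51 kb under peaks in each of the 6 libraries.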
